A study of Homo sapiens with 47 samples.

Results

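The simple epithelial keratin and junction genes *KRT7*, *KRT8*, *KRT18*, *KRT19*, *CDH1*, *EPCAM*, *CLDN3*, *CLDN4* and *CLDN7* were examined for ChIP-seq peaks of histone H3 lysine 27 acetylation (H3K27ac), RNA polymerase II (RNAPII) and the HA epitope. These 9 genes were listed by name, with earlier results of these data known, out of 20090 protein-coding genes on the autosomes and the X chromosome. A peak was assigned to a gene when it touched 2 kb on either side of any GENCODE transcription start on the hg19 build, and a wider search covered each gene body with 10 kb on both sides. Of 959683 peaks in the series, 866 lay within 2 kb of a start of a member and 1304 lay within the wider region.

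All libraries came from Ishikawa cells, a human endometrial adenocarcinoma line, grown in hormone-depleted media and therefore without estrogen. The cells were transiently transfected with a plasmid for dCas9-VP16(10x) or dCas9-p300(core), together with plasmids for pooled guide RNAs (gRNAs). dCas9 is a Cas9 that cannot cut DNA, VP16(10x) is a repeated viral activation domain, and p300(core) is the catalytic core of the acetyltransferase p300. The gRNA groups were Pool 1, Pool 2 and Pool 3, each aimed at 1 estrogen receptor binding site (ERBS) near each of *MMP17*, *CISH*, *FHL2* and *HES2*, an Adjacent pool aimed at regions next to such sites near *MMP17*, *CISH* and *FHL2*, and a control aimed at the *IL1RN* promoter. H3K27ac and RNAPII were each measured in 20 libraries, 2 for each of the 5 gRNA groups with each construct. HA, the tag on dCas9, was measured in 7 libraries, of which 5 carried dCas9-VP16(10x) (2 with the 3 ERBS pools together, 2 with Adjacent and 1 with *IL1RN* gRNAs) and 2 carried dCas9-p300(core) with the 3 ERBS pools together. After transfection the cells were selected for both plasmids, and every group shared the same parental line, the same media and the same time of harvest. The label of dCas9-VP16(10x) Adjacent replicate 1 for H3K27ac also names *IL1RN* gRNAs. None of the 9 members was a target of the gRNAs, so each comparison measures these genes away from the targeted sites.

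Simple epithelia carry intermediate filaments built from paired keratins, in which a type II keratin (*KRT7* or *KRT8*) joins a type I keratin (*KRT18* or *KRT19*). Their cells are held together by the adherens junction protein E-cadherin (*CDH1*) and by EpCAM, and are sealed by tight junctions whose strands consist of claudins. Glandular cells of the endometrium and tumors derived from them are known for this combination of genes. H3K27ac marks active promoters and enhancers, and RNAPII gathers at the starts of genes in use.

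The libraries differed widely in the number of peaks. H3K27ac libraries with dCas9-p300(core) held 1805 to 24280 peaks, with a median of 6143, and those with dCas9-VP16(10x) held 5322 to 32052, with a median of 25025. RNAPII libraries held 16041 to 40757 peaks. HA libraries held 4785 to 30740 peaks with dCas9-VP16(10x), but 154 and 141 with dCas9-p300(core). The read depth is unknown, because peak lists do not hold it. A number in the peak names, here called the run identifier, divided the libraries further. The labels do not state what it stands for. For RNAPII, all 10 dCas9-p300(core) libraries carried 1 identifier, 7 dCas9-VP16(10x) libraries carried another and 3 carried none. Construct and identifier therefore cannot be told apart. For H3K27ac, 1 identifier was carried by 6 dCas9-p300(core) and 5 dCas9-VP16(10x) libraries, and the other 9 libraries had none. Of the 11 H3K27ac libraries with an identifier, 6 stood apart. Across genes other than the members, their enrichment followed mean RNAPII enrichment with Spearman's rho of 0.477 to 0.556, against 0.0929 to 0.326 in the other 14. These 6 were both dCas9-p300(core) Adjacent replicates, dCas9-p300(core) *IL1RN* replicate 1, and dCas9-VP16(10x) Adjacent replicate 2, *IL1RN* replicate 1 and Pool 1 replicate 1. The labels do not state that replicates came from separate cultures, so p-values measure the spread between these libraries, which may be technical. The peak names of dCas9-VP16(10x) Pool 1 replicate 2 for H3K27ac carry a code of the form used for dCas9-p300(core), and leaving that library out changed no call at a member.

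The upstream sequences of 4 members were found in the RefSeq promoter table (GRCh38.p14), and each matched the hg19 genome at 1 place. The sequences at the starts of *CLDN3*, *CLDN4* and *CLDN7* are shown because RNAPII peaks overlapped them in 20 of 20 libraries. Each holds the 250 bases before the start, written 5′ to 3′ on the strand of the gene, with motif matches in capitals. In *CLDN3*, at chr7:73184601-73184850 on the minus strand of hg19, the capitals mark 4 GC boxes (GGGCGG or its complement).
CLDN3: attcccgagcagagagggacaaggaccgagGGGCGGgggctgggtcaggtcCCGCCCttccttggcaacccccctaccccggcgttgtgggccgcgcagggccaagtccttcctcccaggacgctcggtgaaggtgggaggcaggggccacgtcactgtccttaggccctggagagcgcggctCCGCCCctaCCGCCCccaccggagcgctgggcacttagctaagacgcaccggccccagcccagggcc
In *CLDN4*, at chr7:73245076-73245325 on the plus strand, the capitals mark 2 AP-1 motifs (TGANTCA) and 1 GC box.
CLDN4: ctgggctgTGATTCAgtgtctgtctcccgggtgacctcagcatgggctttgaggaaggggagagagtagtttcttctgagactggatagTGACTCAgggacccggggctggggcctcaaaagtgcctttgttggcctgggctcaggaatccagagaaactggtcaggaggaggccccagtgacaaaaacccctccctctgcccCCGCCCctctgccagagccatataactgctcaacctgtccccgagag
In *CLDN7*, at chr17:7165798-7166047 on the minus strand, the capitals mark 4 E-boxes (CACCTG or its complement) and 1 GC box.
CLDN7: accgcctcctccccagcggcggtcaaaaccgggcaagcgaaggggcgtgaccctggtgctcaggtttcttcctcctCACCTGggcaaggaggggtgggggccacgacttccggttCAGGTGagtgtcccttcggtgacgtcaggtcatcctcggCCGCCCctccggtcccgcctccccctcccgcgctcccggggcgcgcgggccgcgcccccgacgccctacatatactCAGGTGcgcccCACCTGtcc

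The 3 claudin promoters differed in base composition. *CLDN3* and *CLDN7* had a GC content of 71.6% and 71.2% with 19 and 25 CpG dinucleotides, and *CLDN4* had 58.8% with 4, where the medians over all promoters of the table were 58% and 11. Searched on both strands, the GC box occurred in 42.6% of 35116 promoters of the same length, the E-box in 17.5% and the AP-1 motif in 6.57%. TATAAA on the gene's strand (6.8% of promoters) and AACCGGTT, the Grainyhead-like motif (0.117%), matched none of the 3. No match overlapped a match of another motif. H3K27ac peaks overlapped these upstream bases in 14 of 20 libraries at *CLDN3*, 16 at *CLDN4* and 12 at *CLDN7*. HA peaks overlapped them in 5, 1 and 4 of 7 libraries. The entries for *KRT8* and for the other start of *CLDN7* were overlapped by RNAPII peaks in 7 and 6 of 20 libraries and are not shown.

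Every member had an H3K27ac peak in at least 11 of 20 libraries. The cells were measured in bulk, so fewer cells with a mark and less of it per cell cannot be told apart. The filament keratins *KRT7*, *KRT8* and *KRT18* had 1 in all 20. With dCas9-VP16(10x), 8 of the members had a peak in 10 of 10 libraries, and *CDH1* in 8. With dCas9-p300(core), *CLDN4* had a peak in 9 of 10 libraries, *EPCAM* in 7, *KRT19* in 5, *CLDN3* and *CLDN7* in 4 each, and *CDH1* in 3. By Fisher's exact test (two-sided, Benjamini-Hochberg adjusted over 13671 genes), 0 of the 6 members that could be tested passed, where 0.0293% of genes (4) passed in favor of dCas9-VP16(10x) and 0% in favor of dCas9-p300(core). The lowest adjusted p among the members was 0.0970, at *CLDN3* and *CLDN7* (unadjusted p = 0.0108), followed by *KRT19* with 0.132 (unadjusted p = 0.0325) and *CDH1* with 0.157. The median gene tested had a peak in 9 dCas9-VP16(10x) and 3 dCas9-p300(core) libraries, a pair of numbers close to those of *CDH1*.

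The number of members with an H3K27ac peak moved with the number of genes that had one in a library. In the 6 libraries with the fewest such genes among dCas9-p300(core), 980 to 3377, there were 3 to 6 members with a peak. dCas9-VP16(10x) Pool 3 replicate 1 had a similar number of genes, 3121, and 8 members with a peak. All 10 libraries with 10262 or more genes had a peak at each of the 9 members. The part of peak number in the presence counts was not tested. Without the 6 libraries that stood apart, *CLDN3* and *CLDN7* passed (adjusted p = 0.0240 by Fisher's exact test, in an alternative added with the values known), as did 19.5% of all genes tested. Among libraries without a run identifier, *KRT19*, *CLDN3* and *CLDN7* had a peak in all 5 dCas9-VP16(10x) and in none of the 4 dCas9-p300(core) libraries (adjusted p = 0.0145, Fisher's exact test), and 54.8% of all genes tested passed in favor of dCas9-VP16(10x). Leaving out 1 library also brought members past the threshold together with many other genes. *KRT19*, *CLDN3* and *CLDN7* passed without dCas9-p300(core) Adjacent replicate 1 (24.7% of all genes) or *IL1RN* replicate 1 (22.3%), *CLDN3* and *CLDN7* without Adjacent replicate 2 (17.2%), and *CDH1*, *CLDN3* and *CLDN7* without dCas9-VP16(10x) Pool 3 replicate 1 (41%). These shares over all genes moved with the setting, so the calls are not particular to the members.

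The enrichment of a peak is its fold over the local background given by the peak caller, and the strongest peak near a start was taken for each gene and library. At *KRT7*, which encodes a type II keratin of glandular and ductal epithelia, H3K27ac enrichment ran from 27.9 to 43.5 (median 35.9) with dCas9-VP16(10x) and from 12.3 to 21.7 (median 15.8) with dCas9-p300(core). The groups did not overlap at *KRT7* before the libraries were brought to a common centre, which was so for 1.65% of the 484 genes with a peak in every library. At *KRT8*, the most widespread type II keratin of simple epithelia, the values were 30.2 to 53.3 (median 38.8) and 8.25 to 50.6 (median 13.0). At *KRT18*, its type I partner, they were 14.6 to 50.8 (median 31.0) and 7.62 to 30.6 (median 12.1). Both groups overlapped at these last 2 genes. The strongest *KRT8* summit lay 178 to 47069 bp from the outermost start of the gene, so the *KRT8* values come from different places.

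At *KRT19*, a type I keratin that lacks most of the tail domain, enrichment was 10.8 to 107 (median 23.6) with dCas9-VP16(10x), and 8.11 to 69.2 (median 58.0) in the 5 dCas9-p300(core) libraries with a peak. At *CDH1*, the adhesion receptor of adherens junctions, it was 7.70 to 54.5 (median 12.5) and, in 3 libraries, 32.7 to 37.8 (median 32.8). At *EPCAM*, a homophilic adhesion molecule, it was 8.08 to 103 (median 25.3) and, in 7 libraries, 6.73 to 67.0 (median 39.9). For these 3 genes the medians were higher with dCas9-p300(core) among fewer libraries. Each of its 3 libraries with a *CDH1* peak was 1 of the 6 that stood apart, and the same libraries had peaks at *KRT19* and *EPCAM*. Outside the 6, *KRT19* was at 8.11 and 8.43 with dCas9-p300(core) and at 10.8 to 29.9 with dCas9-VP16(10x). *EPCAM* was at 6.7, 7.3, 8.6 and 39.9 there with dCas9-p300(core) and at 8.08 to 29.1 with dCas9-VP16(10x).

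Among the claudins, *CLDN3* ran from 10.4 to 92.5 (median 18.1) with dCas9-VP16(10x) and from 26.1 to 62.3 (median 51.2) in 4 dCas9-p300(core) libraries. *CLDN4* ran from 21.6 to 51.7 (median 41.7) and from 9.75 to 37.1 (median 20.7) in 9. *CLDN7* ran from 11.1 to 105 (median 21.0) and from 10.7 to 62.3 (median 49.8) in 4. The 3 genes all encode tight junction strand proteins, and only *CLDN4* among them had the higher median with dCas9-VP16(10x). The *CLDN4* values come from different places. In replicate 1 of dCas9-p300(core) Pool 1, Pool 2 and Pool 3 and of dCas9-VP16(10x) Pool 3, the summit lay past the gene end, at 73247353 to 73247378. In the other libraries with a peak it lay inside the gene.

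**Figure D1:**
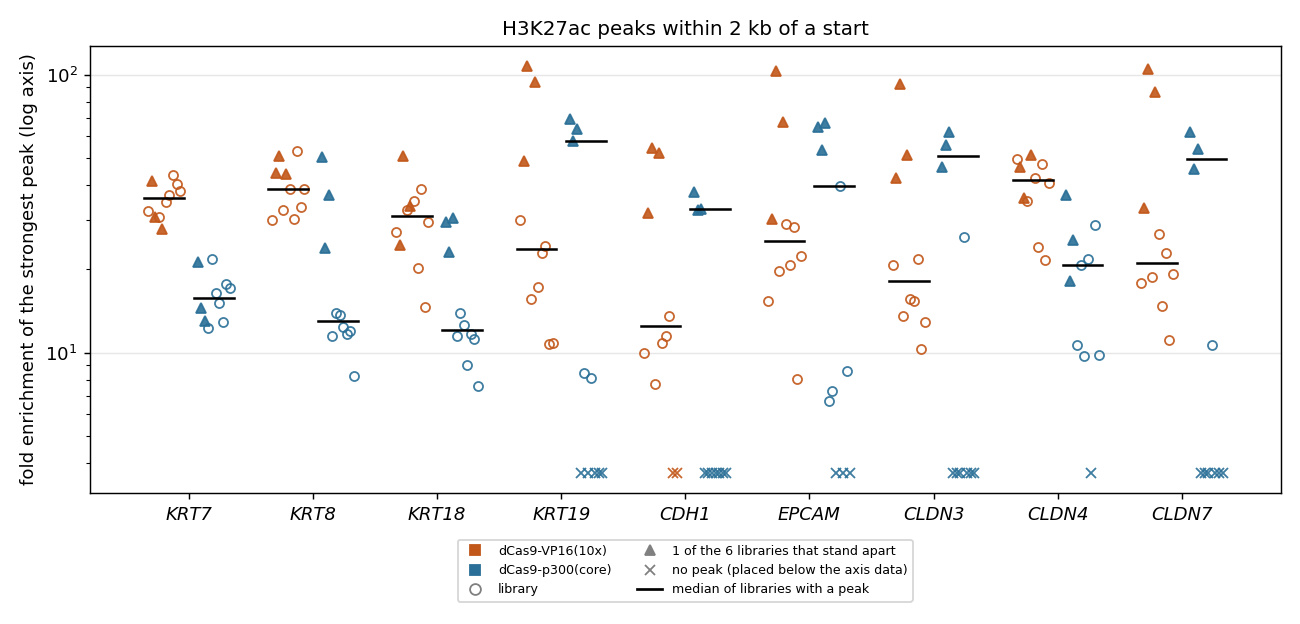
Fold enrichment (log axis) of the strongest H3K27ac peak within 2 kb of a start at each of the 9 genes, 1 symbol per library, with dCas9-VP16(10x) in orange, dCas9-p300(core) in blue, triangles for the 6 libraries that stood apart, crosses for libraries without a peak and bars for the median of libraries with a peak. The triangles lie above the circles of both constructs at *KRT19*, *CDH1*, *CLDN3* and *CLDN7*, and among them at *KRT7*.

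To compare the constructs, log2 enrichment was centred on a common set of genes in each library and tested with limma. None of 10892 genes passed in either direction (0% higher and 0% lower with dCas9-VP16(10x)), with 2265 genes at an unadjusted p under 0.05, and 0 of the 9 members passed. The median difference was −0.20 over the members and −0.21 over all genes tested. The members farthest from 0 were *CLDN3*, at −0.81 (SE 0.26, adjusted p = 0.148), *CDH1*, at −0.47 (SE 0.34, adjusted p = 0.415), and *EPCAM*, at −0.41 (SE 0.26, adjusted p = 0.342). Only libraries with a peak entered these values, 4 with dCas9-p300(core) at *CLDN3* and 3 at *CDH1*, and both differences turned, to 0.24 and 0.076, when missing peaks were set at the lowest enrichment of the library. *KRT7*, whose raw values did not overlap, differed by 0.17 (SE 0.39, adjusted p = 0.831) after centring, and by 1.15 (adjusted p = 0.0272) without it, where 0.744% of all genes were higher. *CLDN3* passed in 1 setting, without dCas9-VP16(10x) *IL1RN* replicate 1 (−0.90, adjusted p = 0.0380), in which 7.16% of all genes were lower with dCas9-VP16(10x). Within the libraries with a run identifier and within those without, no gene passed in this test.

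The members fell into a pair of patterns across the H3K27ac libraries, which is given as a description. In the 6 libraries that stood apart, the *KRT7* peak ranked at a percentile of 15.6 to 76.1 among the genes with a peak in its library, with a median of 32. In the 6 other libraries with a like number of such genes (9441 to 12138, against 10892 to 13294), all with dCas9-VP16(10x), it ranked at 94.2 to 98.7. The sets did not overlap at *KRT7*, nor at *KRT8* (medians 58.5 and 96.9), *KRT18* (45.5 and 94.5) or *CLDN4* (48.1 and 98.2). Of 8749 genes with a peak in at least 5 libraries of each set, 5.55% were lower without overlap in the 6 that stood apart and 16.2% were higher, and the 6 had been set apart by the order of their genes. At *CDH1* the order was the opposite, with a median of 57.7 (50.1 to 73.2) in the 6 that stood apart and 19.4 (7.21 to 41.9) in 5 of the 6 others. *CLDN3* (81.3 and 56.4), *KRT19* (90.0 and 66.3), *CLDN7* (82.9 and 71.2) and *EPCAM* (87.8 and 81.6) also had higher medians in the 6 that stood apart, with overlapping ranges.

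The raw enrichment of all genes was higher in the 6 libraries. The median log2 enrichment of the 484 genes with a peak in every library was 5.58 to 6.44 in them and 3.23 to 5.32 in the other 14. *KRT19* ran from 49.0 to 107 in the 6 libraries that stood apart and from 8.11 to 29.9 in 9 of the other 14. *CDH1* ran from 31.7 to 54.5 and, in 5 of 14, from 7.70 to 13.5. *CLDN3* ran from 42.6 to 92.5 and, in 8 of 14, from 10.4 to 26.1. *CLDN7* ran from 33.3 to 105 and, in 8 of 14, from 10.7 to 26.7. These 4 genes were higher without overlap, as were 66.3% of 8569 genes with a peak in all 6 libraries and at least 5 of the others, while 0% were lower without overlap. *KRT7* was at 13.0 to 41.6 in the 6 and at 12.3 to 43.5 in the other 14, and its percentile over all of those 14 was 61.3 to 99.3, so that both overlapped. The 6 libraries hold both constructs and 3 gRNA groups, and all carry a run identifier. The part of what the identifier stands for, or of the precipitation, in this split was not tested.

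**Figure D2:**
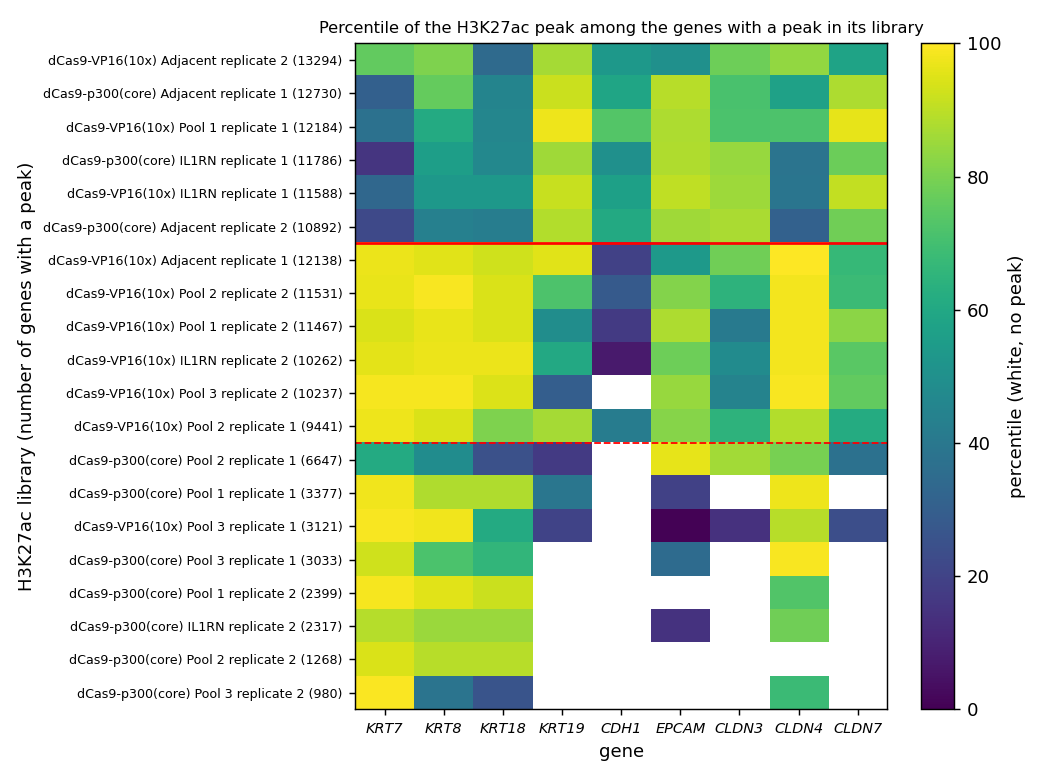
Percentile (color, 0 to 100) of the strongest H3K27ac peak of each of the 9 genes among the genes with a peak in the same library, with libraries as lines of the map and the number of genes with a peak in brackets. The 6 libraries that stood apart are above the solid line, and the 6 others with 9441 or more genes lie between the lines, where *KRT7* stands at 94.2 to 98.7 and *CDH1* at 7.21 to 41.9.

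The H3K27ac peaks also differed in width. The *KRT7* peak was the widest of the 9 genes in 11 of 20 libraries, at 2335 to 8146 bp (median 4862) with dCas9-VP16(10x) and 438 to 2184 bp (median 1814) with dCas9-p300(core). *CLDN4* measured 471 to 7301 bp (median 5769) and 161 to 1259 bp (median 545). *KRT8* measured 1119 to 5800 bp (median 3432) and 315 to 2166 bp (median 791). At these 3 genes the median peak was wider with dCas9-VP16(10x), and only the *KRT7* ranges were without overlap, as were those of 1.65% of the genes with a peak in every library. The widest *KRT7* peaks extend over the start of the neighbouring keratin gene *KRT86*, so their width is not that of *KRT7* alone. The widths at *KRT8* and *CLDN4* belong to peaks at different places, as do their enrichments. *KRT18*, *KRT19*, *CDH1*, *EPCAM* and *CLDN7* had median widths of 886 to 1651 bp with dCas9-VP16(10x) and 624.5 to 1176 bp with dCas9-p300(core). *CLDN3* was narrower with dCas9-VP16(10x), at a median of 858.5 bp against 1784 bp in 4 libraries. Widths were not tested, and they move with the number of peaks in a library.

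**Figure D3:**
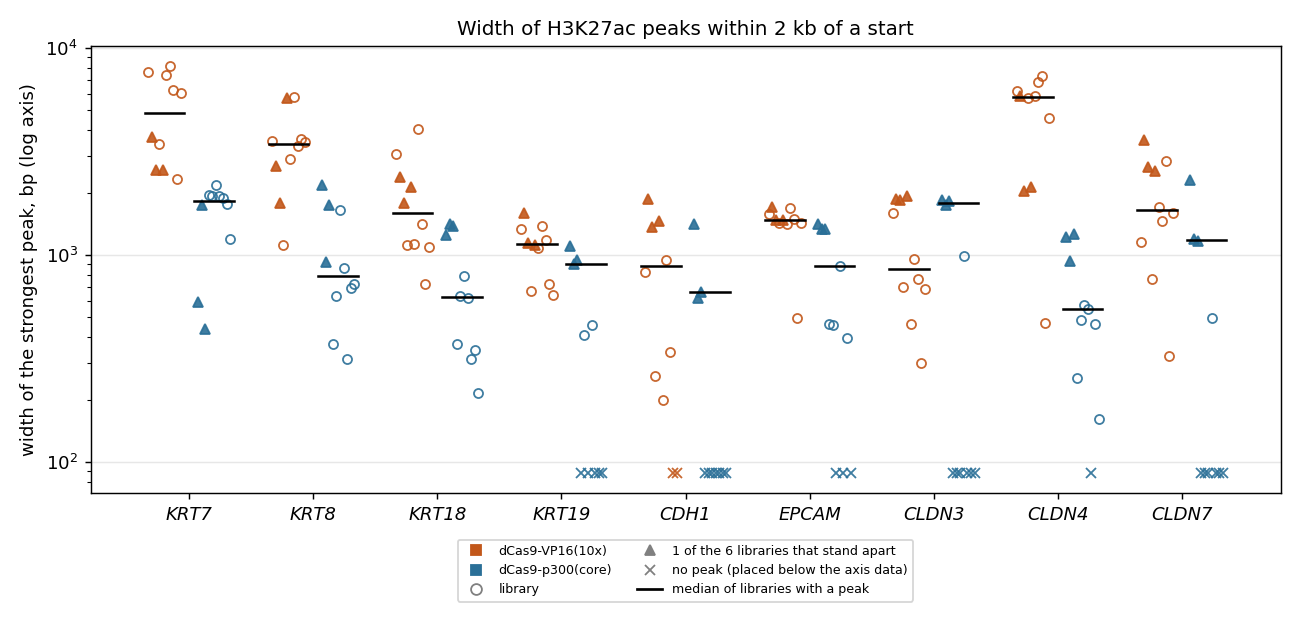
Width in bp (log axis) of the strongest H3K27ac peak within 2 kb of a start at each gene, 1 symbol per library, with colors, triangles, crosses and median bars as in the plot of H3K27ac enrichment. The peaks of *KRT7* reach 8146 bp and those of *CLDN4* 7301 bp with dCas9-VP16(10x), and no *KRT7* peak with dCas9-p300(core) exceeds 2184 bp.

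RNAPII peaks were found in all 20 libraries at 8 of the 9 members, and at 8851 of 20090 protein-coding genes. For H3K27ac these numbers were 3 members and 484 genes, so the contrast between the antibodies is not particular to the members. The member without RNAPII in every library was *KRT7*, with a peak in 10 of 10 dCas9-VP16(10x) and 7 of 10 dCas9-p300(core) libraries (Fisher's exact test, adjusted p = 0.588). In that test 0.422% of 5926 genes passed with a higher share for dCas9-VP16(10x) and 2.56% with a higher share for dCas9-p300(core). *CDH1* had the highest RNAPII enrichment of the 9 genes in 20 of 20 libraries, and ranked at a percentile of 99.5 to 99.97 among all genes. *KRT7* was the lowest in the 17 libraries where it had a peak, and *CLDN4* was the lowest of the 8 members with a peak in the other 3. The order of the members by H3K27ac varied more between libraries. *KRT7* was the highest by H3K27ac in 7 of 20 libraries, *KRT19* in 5 and *CLDN4* in 5. *KRT7* was also the lowest by H3K27ac in 5 of 20 libraries, each of them among the libraries that stood apart. *CDH1*, the highest by RNAPII, was the lowest by H3K27ac in 5 of the 11 libraries where it had a peak, and had no H3K27ac peak in the rest of the 20. The order by RNAPII was thus unlike that by H3K27ac at *CDH1*, and at *KRT7* this depended on the set of H3K27ac libraries.

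RNAPII enrichment at *KRT7* was 3.34 to 13.9 (median 6.09) with dCas9-VP16(10x) and 4.59 to 10.4 (median 7.85) with dCas9-p300(core). These values come from different places. In 4 dCas9-VP16(10x) libraries (6.49 to 13.9) and none with dCas9-p300(core), the strongest peak lay 95 to 172 bp before an inner *KRT7* start. That place is also within 2 kb of a start of the neighbouring keratin gene *KRT86*. In 2 dCas9-p300(core) libraries the strongest peak lay upstream of *KRT7*. At the region of 52636964-52638383, which both constructs share, enrichment was 3.34 to 6.77 in 6 dCas9-VP16(10x) and 4.59 to 10.4 in 5 dCas9-p300(core) libraries. *KRT8* and *KRT18*, which overlap at their 5′ ends, shared the same strongest RNAPII peak in 20 of 20 libraries, with 15.0 to 29.2 (median 25.0) and 21.7 to 43.4 (median 38.5). *KRT19* had 18.8 to 34.0 (median 28.0) and 24.7 to 57.0 (median 43.3). All 4 keratins had higher raw medians with dCas9-p300(core), and the ranges of the constructs overlapped at each.

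The adhesion genes had the same order. *CDH1* had 25.6 to 54.7 (median 39.9) with dCas9-VP16(10x) and 32.5 to 89.1 (median 73.2) with dCas9-p300(core). *EPCAM* had 13.8 to 23.7 (median 21.3) and 9.82 to 60.5 (median 39.1). Of the claudins, *CLDN3* had 9.99 to 25.6 (median 14.7) and 10.9 to 42.4 (median 31.0), and *CLDN7* had 11.9 to 25.3 (median 19.9) and 16.2 to 42.0 (median 31.3). *CLDN4* went the other way, with 15.6 to 36.2 (median 31.9) with dCas9-VP16(10x) and 9.43 to 31.3 (median 16.3) with dCas9-p300(core).

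**Figure D4:**
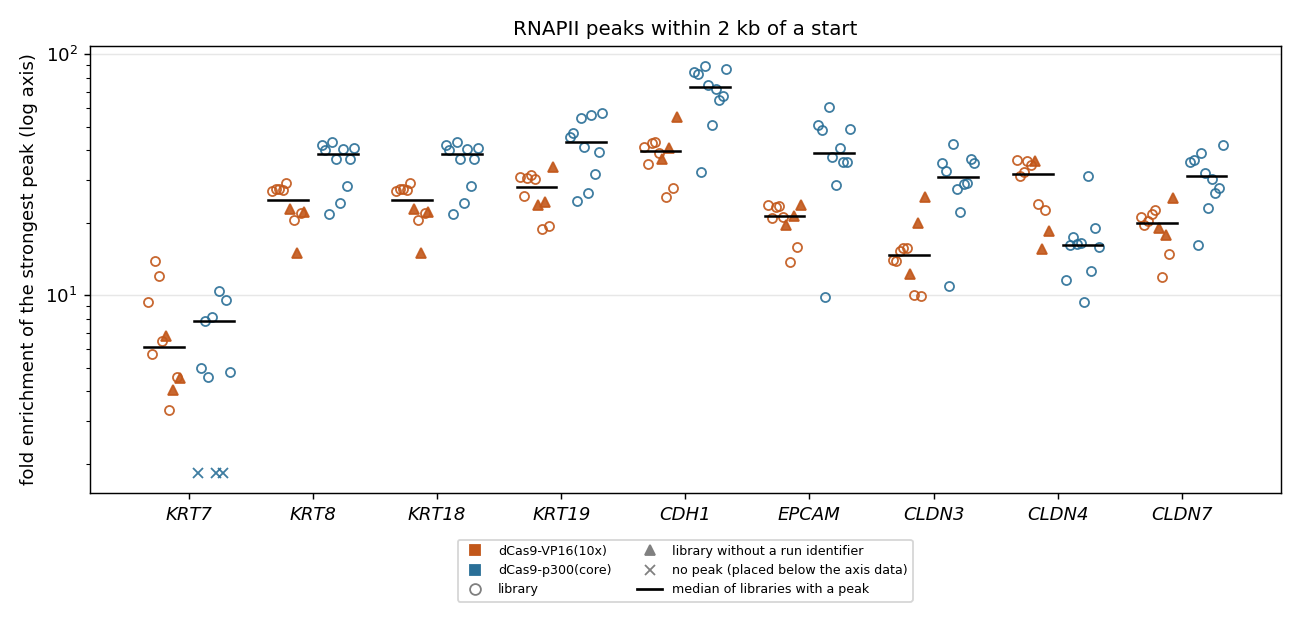
Fold enrichment (log axis) of the strongest RNAPII peak within 2 kb of a start at each gene, 1 symbol per library, with dCas9-VP16(10x) in orange, dCas9-p300(core) in blue, triangles for the 3 libraries without a run identifier, crosses for libraries without a peak and bars for medians. The median of dCas9-VP16(10x) is higher at *CLDN4* (31.9 against 16.3) and lower at the other 8 genes.

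The raw values of all genes were lower with dCas9-VP16(10x), by a median of −0.74 on the log2 scale, so the constructs were compared after centring. With limma, 15% of 12644 genes were higher with dCas9-VP16(10x) and 11.5% were lower. Of the 9 members, 1 passed, *CLDN4*, which was higher by 1.53 on the log2 scale (SE 0.23, adjusted p = 0.000175). Its centred enrichment averaged 0.96 (SD 0.49, n = 10) with dCas9-VP16(10x) and −0.57 (SD 0.64, n = 10) with dCas9-p300(core), and 8 of 10 dCas9-VP16(10x) libraries lay above the highest dCas9-p300(core) library. The difference stayed past the threshold on leaving out any 1 of the 20 libraries, with a range of 1.43 to 1.67, and was 0.80 (adjusted p = 0.000944) without centring. At *KRT7* the difference was 0.70 (SE 0.31, adjusted p = 0.100), and it includes the peaks at the inner *KRT7* start near *KRT86*. It passed under 5 alternatives, without dCas9-p300(core) *IL1RN* replicate 1 (0.92, adjusted p = 0.0219), without the libraries that carry no identifier, with a window of 1 kb, with missing peaks at the lowest enrichment and with the replicate block, where 19.3%, 17.8%, 15.1%, 12.9% and 15.8% of all genes were higher.

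The 7 remaining members did not pass, with differences from −0.24 at *CLDN3* (SE 0.13) to 0.18 at *KRT8* and *KRT18* (SE 0.13). Without centring, all 7 were lower with dCas9-VP16(10x) and past the threshold, as were 78.1% of all genes (9872 of 12644). The direction thus turned with the centring at *KRT8*, *KRT18*, *KRT19* and *CLDN7*. *CDH1*, *EPCAM* and *CLDN3* were lower with dCas9-VP16(10x) either way. The 3 dCas9-VP16(10x) libraries without a run identifier, Pool 1, Pool 2 and Pool 3 replicate 2, also bore on the count. Without them 4 members were higher with dCas9-VP16(10x), where 17.8% of all genes were, namely *KRT7* (0.93, adjusted p = 0.0410), *KRT8* and *KRT18*, which share 1 peak (0.38, adjusted p = 0.00694), and *CLDN4* (1.76, adjusted p = 3.31e-05). At *CLDN4* those 3 libraries ranged from 0.03 to 1.19 on the centred scale and the 7 others from 1.06 to 1.38. Since construct and run identifier cannot be told apart, the *CLDN4* difference is one between these sets of libraries.

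**Figure D5:**
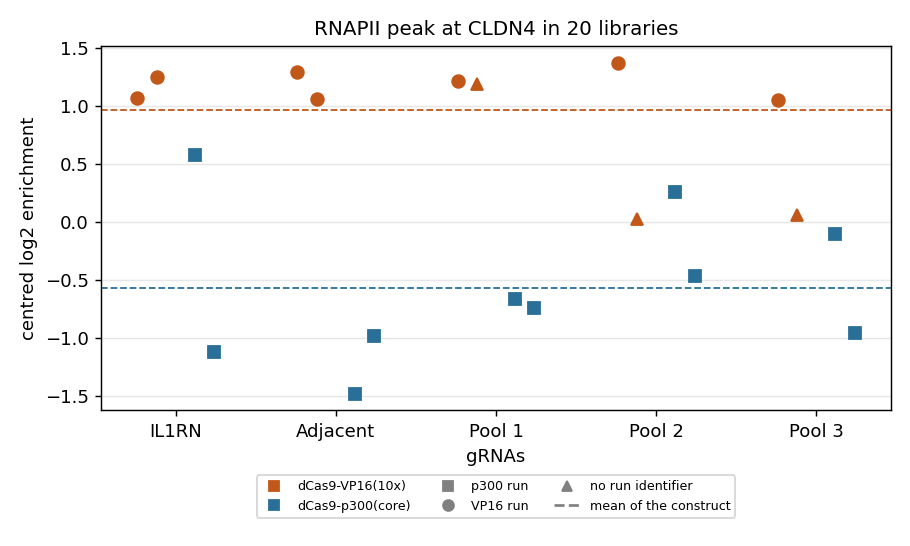
Centred log2 RNAPII enrichment at *CLDN4* in 20 libraries by gRNA group, with dCas9-VP16(10x) in orange and dCas9-p300(core) in blue, the symbol giving the run identifier and dashed lines the mean of each construct (0.96 and −0.57). The constructs overlap only in Pool 2, where a library without a run identifier (triangle) lies at 0.03.

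To ask whether the gRNA pools changed these untargeted genes, the 16 libraries with Pool 1, Pool 2, Pool 3 or Adjacent gRNAs were compared with the 4 *IL1RN* libraries, with the construct as a covariate. For H3K27ac, 0 of 9 members and 0 of 10891 genes passed with limma (0% in either direction, with 498 genes at an unadjusted p under 0.05). The member farthest from 0 was *KRT7*, higher with the pools by 0.90 (SE 0.46, adjusted p = 0.999), followed by *CLDN4*, by 0.67 (SE 0.36). With dCas9-VP16(10x), *KRT7* enrichment was 27.9 to 43.5 (median 37.6) in 8 pool libraries and 30.8 and 30.9 in the *IL1RN* libraries. With dCas9-p300(core) it was 12.9 to 21.7 (median 16.8) and 12.3 and 13.0. These raw ranges overlapped, and the difference was within the spread between libraries. On the centred scale used for the test, the *IL1RN* replicate 1 libraries, which stood apart, were at −2.13 and −1.49. The *IL1RN* replicate 2 libraries were at 0.17 and 0.10, and the pool libraries ran from −1.81 to 1.23. The part of the libraries that stood apart in this difference was not tested.

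For RNAPII, 0 of 9 members and 0 of 12638 genes passed in the same comparison (0% in either direction, 336 genes at an unadjusted p under 0.05). *KRT7* was farthest from 0, at −0.66 (SE 0.34, adjusted p = 0.9995 with limma). Its RNAPII enrichment was 12.1 and 13.9 in the dCas9-VP16(10x) *IL1RN* libraries and 3.34 to 9.37 (median 5.15) in the 8 pool libraries. Both *IL1RN* values are peaks at the inner *KRT7* start near *KRT86*, as are 2 of the 8 pool values, so they cannot be assigned to *KRT7* alone. With dCas9-p300(core) it was 4.59 and 7.85 against 4.81 to 10.4 in 5 of 8 libraries, where the ranges overlapped. The difference between the constructs in this effect did not pass at any member for either antibody, with adjusted p of 0.837 or more for RNAPII.

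HA peaks were present at the members in the dCas9-VP16(10x) libraries only, where the 2 dCas9-p300(core) libraries held 154 and 141 peaks in all and none at a member. *KRT8*, *KRT19*, *CDH1*, *EPCAM*, *CLDN3* and *CLDN4* had an HA peak in 5 of 5 libraries, *KRT7* and *CLDN7* in 4 and *KRT18* in 2. Of all protein-coding genes, 25.9% had an HA peak in at least 4 of 7 libraries, and 8 of the 9 members did. At *CDH1* the enrichment was 10.4 and 28.0 with ERBS gRNAs, 9.94 and 35.2 with Adjacent gRNAs and 14.1 with *IL1RN* gRNAs. The *CDH1* values with ERBS gRNAs come from a peak farther inside the gene than the others. At *CLDN4* the enrichment was 4.41 and 20.4, 6.41 and 9.62, and 5.10, which was the lowest of the members in 2 of the 5 libraries.

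The HA values differed between replicates of the same gRNAs. ERBS replicate 2 and Adjacent replicate 2 held the 2 highest values at each of the 9 genes, for example 27.7 and 22.3 at *KRT8*, where the other 3 libraries had 6.56 to 12.5. The same held for 97.4% of 13512 genes with an HA peak in at least 2 dCas9-VP16(10x) libraries, so it is not particular to the members. *EPCAM* had 17.9 and 26.6 in these libraries and 9.45 to 12.5 in the others. *KRT18* had a peak in these 2 libraries only, at 14.5 and 15.7. Within the ERBS group and within the Adjacent group, 1 replicate was thus among the highest libraries and the other among the lowest, and the part of peak number in this was not tested.

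The positions of the peaks differed by antibody and by gene. At *CDH1* (chr16:68771195-68869440, plus strand), the strongest RNAPII summit lay a median of 25 bp after the outermost start, in an exon. The strongest HA summit lay a median of 1 bp after that start, but at 2 places. It was at 68771135 to 68771196 with Adjacent and *IL1RN* gRNAs, and at 68772221 and 68772261 with ERBS gRNAs. H3K27ac was found there in 11 of 20 libraries (68770638-68772766), but in 16 libraries at an intronic region that no start window reached (68777801-68779890, summit 7829 bp inside the gene), with a median enrichment of 12.3. This intronic region was thus found in more libraries than the promoter, in 10 of 10 with dCas9-VP16(10x) and 6 of 10 with dCas9-p300(core). The peak beyond the 3′ end (68877331-68878145) lay at a start of the neighbouring gene *TANGO6*.

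*KRT7* (chr12:52626304-52645970, plus strand) had its strongest H3K27ac inside the gene, in a region spanning 52635829-52644454 that was found in 20 of 20 libraries, with the summit a median of 11927.5 bp from the outermost start. A weaker region upstream (52623343-52626553, median enrichment 12.0) was found in 10 dCas9-VP16(10x) and 5 dCas9-p300(core) libraries. RNAPII at *KRT7* lay at 52636964-52638383 in 17 libraries and at 52641077-52641451 in 8. The last of these lies at an inner *KRT7* start and within 2 kb of a start of *KRT86*, another type II keratin. Its reads therefore cannot be assigned to *KRT7* alone. The H3K27ac region inside the gene also covers this place. In dCas9-VP16(10x) Adjacent replicate 2 the strongest H3K27ac peak had its summit there (52641193).

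*KRT8* (chr12:53290971-53343738, minus strand) and *KRT18* (chr12:53342655-53346690, plus strand) overlap, and part of their values is shared. H3K27ac covered 3 regions of the pair: 53296033-53302857, at starts of shorter *KRT8* transcripts, in 20 of 20 libraries, 53318284-53322056 in 18 and 53336238-53344848, which includes the *KRT18* start, in 20. The strongest H3K27ac peak was the same for both genes in 5 of 20 libraries. The strongest RNAPII region of both genes was 53342456-53344854, with a median enrichment of 27.6, and the inner *KRT8* starts had RNAPII in 20 of 20 libraries as well (53296768-53299268), with 16.4. HA was stronger at those inner starts, where the *KRT8* summit lay in 5 of 5 dCas9-VP16(10x) libraries.

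*KRT19* (chr17:39679869-39684560, minus strand) had H3K27ac (39683431-39685046) in 15 and RNAPII (39683542-39684978) in 20 libraries, with the RNAPII summit a median of 27 bp after the outermost start and the HA summit 79 bp before it. At *EPCAM* (chr2:47572297-47614740, plus strand), all 3 antibodies met at an inner start about 24164 bp from the outermost one, with RNAPII at 47595962-47597371 in 20 libraries. *CLDN3* (chr7:73183327-73184600, minus strand) lies 29272 bp from *CLDN4* (chr7:73213872-73247020, plus strand) and had a single H3K27ac region, 73183434-73185677, in 14 libraries. These 3 genes had no H3K27ac region outside the start windows in 10 or more libraries.

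At *CLDN4* the RNAPII summit lay 52 bp after the nearest start and the HA summit 1322 bp after it, inside a RNAPII region of 73244451-73248267 that was found in 20 libraries. The HA peak reached the upstream bases shown above in 1 of 7 libraries. H3K27ac covered 73240852-73248326 in 19 libraries. At *CLDN7* (chr17:7163222-7167302, minus strand) RNAPII covered 7161905-7166830 in 20 libraries, with the summit 36.5 bp after the nearest start, the one whose upstream bases are printed. H3K27ac at *CLDN7* was found at 7163578-7167151 in 14 libraries, and a region of the flank in 16 (7154024-7156525) lay at starts of *CTDNEP1* and *ELP5*.

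Other genes of the same kind were compared by counts. Of 31 other junction and epithelial genes, 28 (90.3%) had an H3K27ac peak in at least 10 of 20 libraries and 31 had an RNAPII peak, against 48.4% and 63.3% of all protein-coding genes. Between constructs, 5 of the 31 had higher RNAPII with dCas9-VP16(10x) by limma and are named because they passed. These were *F11R* (0.49) and *CTNNA1* (0.49), a tight junction adhesion molecule and α-catenin, *PKP2* (0.26), a desmosomal plaque protein, the epithelial transcription factor *ELF3* (0.90) and the membrane protease *PRSS8* (0.35). The claudin genes *CLDN1* (−0.58) and *CLDN6* (−0.44) were lower. These 5 and 2 genes of 31 stand beside 15% and 11.5% of all genes tested. No gene of this list passed for H3K27ac, and the list's median RNAPII difference was −0.03, where that of the members was 0.10 and that of all genes −0.000261.

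The keratins of other epithelia were mostly without peaks. Of 16, 9 had no H3K27ac and 12 no RNAPII peak in any library, among them *KRT1*, *KRT4*, *KRT6A* and *KRT6B*, keratins of stratified epithelia. *KRT80* had both in 20 of 20 libraries, and *KRT86*, whose window takes in *KRT7* peaks, had H3K27ac in 15 and RNAPII in 8. Of 10 mesenchymal genes, 4 (40%) had an H3K27ac peak in at least 10 of 20 libraries and 6 (60%) an RNAPII peak. The shares of all protein-coding genes were 48.4% and 63.3%. Among the 10, *CDH2*, encoding N-cadherin, and *ZEB1*, a repressor of *CDH1*, had H3K27ac in 19 and 13 libraries. They had RNAPII in 20 and 19. *ZEB2*, *COL3A1* and *SPARC* had no H3K27ac peak, and *ZEB2* had RNAPII in 4 libraries. Of the leukocyte genes, *PTPRC*, *CD3E* and *CD14* had neither mark in any library, while *CD68* had H3K27ac in 3 and RNAPII in 20 libraries. Of 4 endothelial genes, *CDH5*, *VWF* and *TEK* had neither mark, and *KDR* had H3K27ac in 1 and RNAPII in 6 libraries. *CD68* and *KDR* are named because they had a peak.

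The genes whose centred RNAPII enrichment moved most like the mean of the members were *SLC38A2*, *HNRNPAB* and *TUBA1C*, with Pearson's r of 0.882, 0.860 and 0.859 over 20 libraries among 8814 genes. For H3K27ac they were *C1D*, *SLC3A2* and *WDR81* among 477 genes with a peak in every library, and no r is given because the libraries fell into separate sets. These likenesses are descriptions, since all values come from the same libraries. The RNAPII libraries also divide by construct and run identifier, and *KRT8* and *KRT18* enter the mean with the same peak. The members did not all move together by RNAPII, with r of −0.478 between *CLDN3* and *CLDN4* and 0.815 between *CDH1* and *CLDN3*.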

How the data were processed

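ChIP-seq of H3K27ac, RNAPII and HA was analysed from 47 peak lists of Ishikawa cells, 1 per library. Per the labels and the study's methods, the authors aligned single-end reads to hg19 with Bowtie 1.1.2, removed duplicates with SAMtools and called peaks in each library with MACS2 2.1.0.20140616, where the lowest deposited −log10 p-value was 10.0007. The deposited fold enrichment at the summit (a ratio over background) and the deposited −log10 p-value were used, and the peak lists hold no read counts, so read depth is unknown and the number of peaks is given instead.

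Peaks were assigned to the GENCODE starts (hg19) of protein-coding genes by an overlap of at least 1 bp with 2 kb on either side, and the strongest peak per gene and library was kept. Percentiles rank that value among all genes or, where stated, among the genes with a peak. Presence was compared with Fisher's exact test (two-sided, scipy 1.17.1, Python 3.11.15). Enrichment was compared with limma 3.58.1 (R 4.3.3) on log2 enrichment, centred in each library on the median of genes with a peak in every library of the antibody, among genes with a peak in at least 3 libraries of each construct. A missing peak entered these fits as a missing value. P-values were Benjamini-Hochberg adjusted over all genes, with a threshold of 0.05. HA, width and gene body regions were described without a test. The scripts were tested on simulated data.

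Groups and replicate numbers came from the labels. Deviations of same-numbered H3K27ac libraries correlated at 0.157 to 0.913 in the 5 gRNA groups. Outside the Adjacent group, each H3K27ac replicate 1 carried the run identifier and each replicate 2 carried none, with both constructs. A pairing by replicate number therefore cannot be told apart from the run identifier. The values printed come from fits without a replicate block, and the block was run as an alternative. The alternatives were a window of 1 kb, a stricter −log10 p-value of 20, summit position, centring, missing peaks at the lowest enrichment, blocks, batches, gRNA pool terms and leaving out libraries. Named genes were the members, the 3 genes most correlated with them per antibody, and from each other list the 2 highest H3K27ac percentiles and up to 4 genes without an H3K27ac peak. Some, not all, of the other genes of these lists that passed a test or had a peak were named after their values were seen. The members and lists were chosen with earlier results of these data known. Of the leukocyte list, 1 gene is not reported here.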

Additional observations from a re-analysis of the deposited data

Results flagged for a closer look

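Among 35 groups of 4 to 10 libraries, each gene with 1 antibody and construct, 2 held a library far from the others by Dixon's criterion, where chance gives about 1 in 20. H3K27ac enrichment at *CLDN4* in dCas9-VP16(10x) *IL1RN* replicate 1 was 36.0, within the 21.6 to 51.6 of the other 9 libraries, but on the centred log2 scale it was −1.27 where the others ran from −0.26 to 0.83 (gap over range 0.479, critical value 0.466). This library is 1 of the 6 that stood apart. RNAPII enrichment at *EPCAM* in dCas9-p300(core) *IL1RN* replicate 1 was 9.82, where the other 9 libraries had 28.6 to 60.5, and −0.25 on the centred scale, where the others had 0.53 to 1.03 (gap over range 0.605). This library held 18809 peaks, the fewest of the dCas9-p300(core) RNAPII libraries. Whether peak number bears on either value was not tested.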

How the results depend on the processing

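The counts of members past the threshold moved as follows. For H3K27ac presence the count was 0, but 2 without the 6 libraries that stood apart, 3 among libraries without a run identifier and 0 to 3 on leaving out 1 library. In the settings with calls at members, 17.2% to 54.8% of all genes passed. For H3K27ac between constructs it was 0, but 1 without centring (*KRT7*, with 81 genes called, all higher) and 0 to 1 on leaving out 1 library. For RNAPII between constructs it was 1, but 2 with a window of 1 kb, with missing peaks at the lowest enrichment and with the replicate block (a pairing that the RNAPII libraries did not show, with correlations of −0.109 to 0.246), 4 without the 3 libraries that carry no identifier, 8 without centring, and 1 to 2 on leaving out 1 library. Without centring 0.624% of the RNAPII calls were higher with dCas9-VP16(10x), against 56.8% with it. RNAPII presence and both comparisons of pools with *IL1RN* stayed at 0 under each alternative run. Counted once per member and library, HA peaks were present in 40 pairs, or 33 at a −log10 p-value of at least 20. The replicate block changed no other call. *CLDN4* kept its RNAPII call under each alternative run.

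Directions that turned belonged to members that had not passed. For H3K27ac between constructs the differences became 0.20 at *EPCAM* without centring, 0.45 at *KRT19*, 0.076 at *CDH1*, 0.24 at *CLDN3* and 0.61 at *CLDN7* with missing peaks at the lowest enrichment, and −0.036 at *KRT18*, 0.22 at *KRT19* and 0.028 at *CDH1* with a batch term. They became 0.052 at *KRT19* with a gRNA pool term, −0.0081 at *KRT18*, 0.23 at *KRT19*, 0.070 at *CDH1*, −0.12 at *CLDN4* and 0.0128 at *CLDN7* in libraries with an identifier, −0.38 at *KRT7* and −0.076 at *KRT18* in those without, and −0.14 at *KRT7*, −0.021 at *KRT18* and −0.066 at *CLDN4* without the 6 libraries. For pools against *IL1RN*, H3K27ac became −0.22 at *CDH1* at the stricter threshold, −0.25 at *KRT8*, −0.54 at *KRT18* and −0.13 at *CDH1* without centring, −0.23 at *CDH1* with missing peaks filled in, and −0.22 at *KRT18* and 0.34 at *EPCAM* without the 6. RNAPII between constructs became −0.10 at *KRT7*, −0.54 at *KRT8* and *KRT18*, −0.62 at *KRT19* and −0.66 at *CLDN7* without centring, and for pools against *IL1RN* 0.0450 at *KRT8* and *KRT18* without the 3 libraries. On leaving out 1 library, H3K27ac between constructs ranged from −0.048 to 0.33 at *KRT7* and −0.056 to 0.13 at *KRT18*. For pools against *IL1RN*, H3K27ac ranged from −0.16 to 0.21 at *KRT18*, −0.59 to 0.033 at *KRT19*, −0.19 to 0.50 at *CDH1*, −0.29 to 0.20 at *EPCAM* and −0.42 to 0.22 at *CLDN3*. RNAPII there ranged from −0.20 to 0.023 at *KRT8* and *KRT18*, −0.025 to 0.083 at *CDH1*, −0.074 to 0.28 at *EPCAM*, −0.60 to 0.018 at *CLDN4* and −0.066 to 0.062 at *CLDN7*. The cause was not tested. A batch term for the run identifier could not be fitted for RNAPII, where construct and identifier coincide.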
